A study of Mus musculus with 2 samples.

Results

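Interferon-stimulated genes were examined in peak lists of open chromatin from colonic macrophages with and without the corepressor gene Tle4. The 38 genes comprised the interferon genes Ifnb1, Ifnar1 and Ifnar2, the transcription factors Irf1, Irf7 and Irf9, nucleic acid sensors and their regulators, and induced antiviral effectors that include the Ifit, Oas, Oasl, Gbp and Slfn families. All 38 were found among the 21887 protein-coding genes of the RefSeq table, whose assembly, GRCm38.p6, underlies mm10. Peaks were assigned to a gene when they overlapped its annotated span or the 10 kb on either side. This gave 228 of the 128737 WT peaks and 199 of the 128129 Tle4cKO peaks, each counted once.

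The libraries were made by ATAC-seq, in which the transposase Tn5 inserts adapters into accessible DNA. The WT library came from Lyz2-Cre mice and the Tle4cKO library from Tle4f/f Lyz2-Cre mice, so the Cre transgene was present in both. Lyz2 drives Cre in myeloid cells, which include neutrophils and monocytes besides macrophages. Donors were male C57BL/6 animals aged 18.9 weeks. Colonic cells were sorted as Siglec-F(-), Ly6C(lo) and CD64(+), and each library held the pooled cells of 2 mice of 1 genotype. With 1 library per genotype no replicate error can be given and no test was made between genotypes. Intervals below are 95% intervals that cover counting error only.

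Type I interferon binds the Ifnar1 and Ifnar2 receptor chains, and kinases attached to them start the signal. It leads to a complex containing Irf9 that binds interferon-stimulated response elements (ISRE) in the promoters of induced genes, while interferon gamma acts at gamma-activated sites (GAS). Intestinal macrophages meet microbial products continuously, and Tle4 belongs to the Groucho family of corepressors, which are recruited to DNA by transcription factors.

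Promoter sequence was available in the RefSeq table for 30 of the 38 genes, from 250 bases before to 50 bases after the start. The letters GAAA, any 2 bases and GAAA again, searched on both strands as the core of an ISRE, were found in 15 of these 30 genes (50.0%), against 689 of 17492 genes in the table (3.94%). The letters TTCNNNGAA, searched on both strands as the core of a GAS, were found in 11 of 30 (36.7%), against 1560 of 17492 (8.92%). Both kinds were present in 5 of the 30 genes, and in Bst2 and Ifitm3 a match of one overlapped a match of the other. The 8 promoters below are those with ISRE letters upstream of the start and the most pileup at the start, and they are shown because every one lay under a peak in both lists. Each is the 170 bases ending just before a gene start of the RefSeq promoter table, 5′ to 3′ on the gene's strand, GRCm38.p6. At Slfn5, Gbp3 and Oas3 that start lay inside the annotated gene span. The bases shown therefore lay within the span, wholly at Slfn5 and partly at Gbp3 and Oas3. Capitals mark the ISRE letters, which read TTTC, 2 bases, TTTC where the match is on the other strand.
Oas3, chr5:120777660-120777829, - strand: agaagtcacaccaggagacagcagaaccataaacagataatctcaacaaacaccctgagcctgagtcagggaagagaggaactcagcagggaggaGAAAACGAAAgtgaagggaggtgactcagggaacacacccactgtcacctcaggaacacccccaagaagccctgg
Bst2, chr8:71537473-71537642, - strand: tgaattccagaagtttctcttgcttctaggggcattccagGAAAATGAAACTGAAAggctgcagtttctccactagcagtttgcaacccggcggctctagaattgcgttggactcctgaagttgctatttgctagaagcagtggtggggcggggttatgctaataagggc
Slfn5, chr11:82951932-82952101, + strand: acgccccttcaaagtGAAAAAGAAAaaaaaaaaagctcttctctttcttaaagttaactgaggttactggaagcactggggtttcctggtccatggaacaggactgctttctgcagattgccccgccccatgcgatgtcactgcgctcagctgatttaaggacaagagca
Gbp3, chr3:142559874-142560043, + strand: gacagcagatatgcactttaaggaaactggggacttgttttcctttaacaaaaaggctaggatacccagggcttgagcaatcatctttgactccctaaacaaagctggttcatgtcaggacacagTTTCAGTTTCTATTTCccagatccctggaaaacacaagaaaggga
Rsad2, chr12:26456453-26456622, - strand: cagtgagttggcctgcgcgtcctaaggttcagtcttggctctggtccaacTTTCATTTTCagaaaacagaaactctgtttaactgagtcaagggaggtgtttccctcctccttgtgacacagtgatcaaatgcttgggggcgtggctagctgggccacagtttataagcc
Gbp7, chr3:142530166-142530335, + strand: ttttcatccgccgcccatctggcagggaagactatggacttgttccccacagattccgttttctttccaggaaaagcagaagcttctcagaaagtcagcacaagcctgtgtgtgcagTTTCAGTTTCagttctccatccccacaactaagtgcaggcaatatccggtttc
Gbp2, chr3:142620493-142620662, + strand: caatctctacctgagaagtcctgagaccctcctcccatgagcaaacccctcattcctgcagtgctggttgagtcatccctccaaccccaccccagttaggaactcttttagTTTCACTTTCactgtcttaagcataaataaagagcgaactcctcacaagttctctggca
Ifit1, chr19:34640719-34640888, + strand: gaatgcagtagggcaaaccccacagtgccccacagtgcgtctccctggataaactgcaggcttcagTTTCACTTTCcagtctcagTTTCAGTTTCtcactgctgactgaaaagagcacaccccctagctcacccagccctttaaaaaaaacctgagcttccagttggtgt

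In Bst2 and Gbp3 the capitals join 2 overlapping matches into 1 run, and Ifit1 holds 2 separate matches. The match nearest to the start among these promoters began 39 bases before it, in Gbp3, and the farthest began 155 bases before it, in Slfn5. A match of letters describes the sequence and does not show that a factor was bound there.

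The deposited value of each peak was its pileup, the authors' own height of stacked fragments at the summit, in whole numbers and with no recorded scaling between libraries. Its median was 28 over the WT list and 20 over the Tle4cKO list, and the 92335 pairs of peaks that were each other's best overlap had a median Tle4cKO over WT ratio of 0.741. A raw ratio below 1 is therefore the ordinary case in these files. Ratios below are also given on a relative log2 scale, as log2 of Tle4cKO over WT pileup minus the median of pairs of like summed pileup, so that 0 is the ratio of like pairs and a negative value is lower in Tle4cKO. A pair was called when its exact counting interval lay wholly above or below the ratio of like pairs. A peak was WT-only or Tle4cKO-only when it overlapped no peak of the other list. All 8 macrophage markers had a peak at their gene start, or at either end where the table gave no start, in both lists, at pileups of 95 to 202 in WT and 71 to 166 in Tle4cKO. Markers of other cells were mixed. No such peak was found in either list at Epx and Prg2 (2 of 3 eosinophil markers), at Cd3e and Cd3g (2 of 3 T cell markers), at Klk1 or at Krt20. One was found in both at Cd4 (144 in WT and 118 in Tle4cKO), at 4 of 5 plasmacytoid dendritic cell markers (50 to 156 and 43 to 135; Bst2 is among them), at all 3 monocyte markers (24 to 79 and 19 to 65), at all 3 B cell markers (26 to 69 and 12 to 43) and at 2 of 3 epithelial markers (36 to 39 and 29 to 31). At the start of Siglecf, the eosinophil gene whose protein was used to exclude cells, the WT peak reached 101 and the Tle4cKO peak 30. By best overlap, that WT peak was paired with a taller Tle4cKO peak, of 63. The ratio of this pair was 0.624 (0.448 to 0.863), against 0.721 in like pairs. What such cells contributed to the peaks below was not tested.

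Accessible gene starts were common to the interferon-stimulated genes in both genotypes. A peak within 1000 bp of the start was present in both lists at 37 of 38 genes (97.4%), against 62.6% of 17492 genes of the promoter table, and at the remaining gene, Ifi44, in WT alone. Either annotated end stood in for the start at 8 genes, Dhx58 among them. In WT the strongest start peak ranged from 28 at Ifnb1 to 194 at Dhx58 over these 37 genes, with a median of 133. In Tle4cKO it ranged from 19 at Ifnb1 to 174 at Oasl1, with a median of 96. The corresponding medians over all genes were 144 and 112. All 37 start pairs had the lower raw pileup in Tle4cKO. Read against like pairs, they were divided almost evenly. The relative log2 ratio was negative in 19 of 37 (51.4%), against 46.9% of 10927 gene-start pairs, and its median was -0.0087, with quartiles of -0.118 and 0.067. None of the 37 was called. In pooled bulk cells, fewer cells with an open site and a less open site in each cell cannot be told apart.

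**Figure D1:**
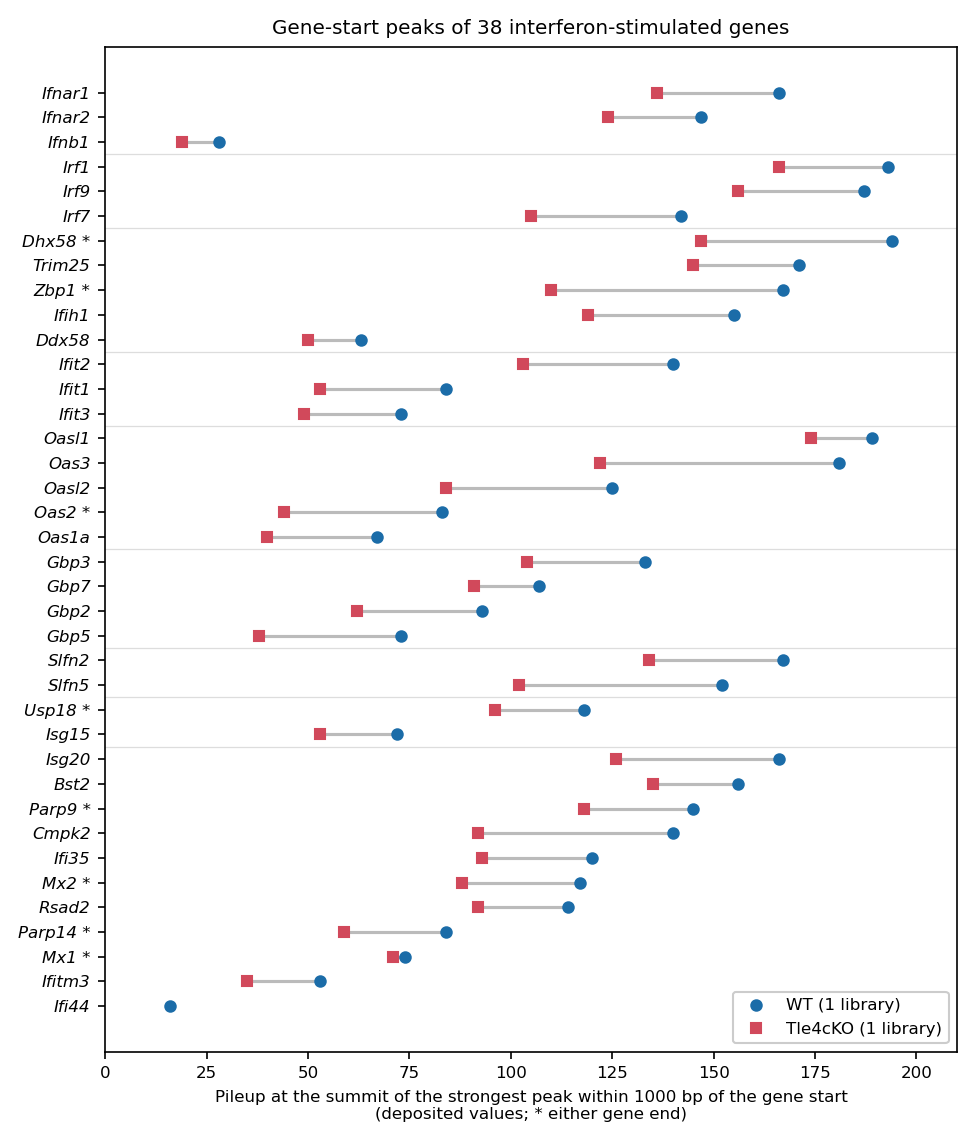
Pileup (horizontal axis, deposited value at the summit) of the strongest peak within 1000 bp of the start of each gene, with a circle for the WT library, a square for the Tle4cKO library and a line joining them; genes are grouped by role, and an asterisk marks genes for which either annotated end was used. The WT circle lies to the right at all 37 genes with both, and Ifi44 has a WT peak of 16 alone.

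Before pileup was taken into account, the WT-only share around these genes was close to that of the whole list and the Tle4cKO-only share was below it. WT-only peaks numbered 62 of 228 (27.2%, Wilson interval 21.8 to 33.3), against 27.1% of the whole WT list and 25.9% of WT peaks near any protein-coding gene. Tle4cKO-only peaks numbered 24 of 199 (12.1%, 8.24 to 17.3), against 23.5% of the whole Tle4cKO list and 21.3% near any protein-coding gene. The number of Tle4cKO peaks was 0.873 of the number of WT peaks, compared with 0.982 near protein-coding genes and 0.995 in the whole lists. Peaks near these genes were taller than the rest, with a median pileup of 45.5 in WT and 40 in Tle4cKO, and tall peaks were seldom found in 1 list only. With the whole-list shares weighted to the pileups of these peaks, the reference shares became 20.7% for WT-only and 11.6% for Tle4cKO-only. The WT-only share was above its weighted reference and the Tle4cKO-only share was close to it. Among peaks with a pileup of at least 15 the shares were 11.6% and 4.35%, against 10.9% and 3.3% of the whole lists.

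WT-only shares exceeded those of the list mainly in 2 classes of pileup. Under 15, 41 of 47 WT peaks were WT-only (87.2%, 74.8 to 94.0), against 71.6% of the list. From 30 to 59, 10 of 47 were WT-only (21.3%, 12.0 to 34.9), against 7.56%. From 15 to 29 the share was 24.4% against 25%, and at 60 and over it was 1.08% against 0.811%. Ifih1 and Parp14 held 8 and 9 of the 62. Without these genes, which were singled out after their counts were seen, 45 of 197 WT peaks were WT-only (22.8%, 17.5 to 29.2), against a weighted reference of 16.2%, and the Tle4cKO-only share was 12.0% against 11.1%.

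**Figure D2:**
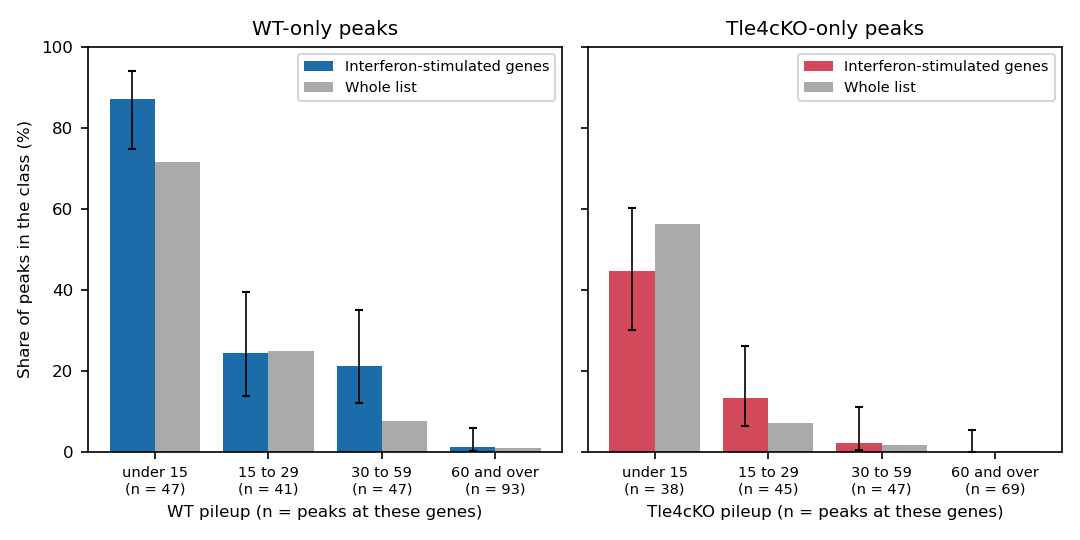
Share of peaks (%, vertical axis) that were WT-only (left) or Tle4cKO-only (right) in 4 classes of pileup, at the interferon-stimulated genes (coloured bars, with Wilson 95% intervals as error bars) and over the whole list (grey bars). The coloured WT bars stand above the grey ones under 15 (87.2% against 71.6%) and from 30 to 59 (21.3% against 7.56%).

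Per gene, 24 of 38 had more WT-only than Tle4cKO-only peaks (63.2%), against 39.4% of 18083 genes with a peak. The reverse held for 9 (23.7%), against 27.6%, and 5 had equal numbers (13.2%, against 33.0%). Of the 33 genes with unequal numbers, 72.7% had more WT-only peaks, against 58.8% of 12120 such genes among all with a peak. A WT-only excess of 3 or more was found at 6 genes (15.8%, against 9.24%), namely Ifih1, Parp14, Ifi44, Ddx58, Gbp2 and Gbp7, and a Tle4cKO-only excess of that size at Ifit2 alone (2.63%, against 4.76%). Some windows overlap, so that 14 WT and 11 Tle4cKO peaks were counted at more than 1 gene, and the genes are not independent. Most WT-only peaks lay away from gene starts, with 32 inside genes, 27 in the flanks and 3 at starts. Tle4cKO-only peaks lay inside genes in 12 cases, in flanks in 11 and at a start in 1. Their median pileup was 12 in each list. A pileup of 30 was reached by 11 WT-only peaks and 1 Tle4cKO-only peak. Pileups were lower in Tle4cKO in general, with a median ratio of 0.741 over all pairs. From 30 to 59, the WT-only share was 21.3% at these genes against 7.56% of the list. In that class the Tle4cKO-only share was 2.13% against 1.67%.

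**Figure D3:**
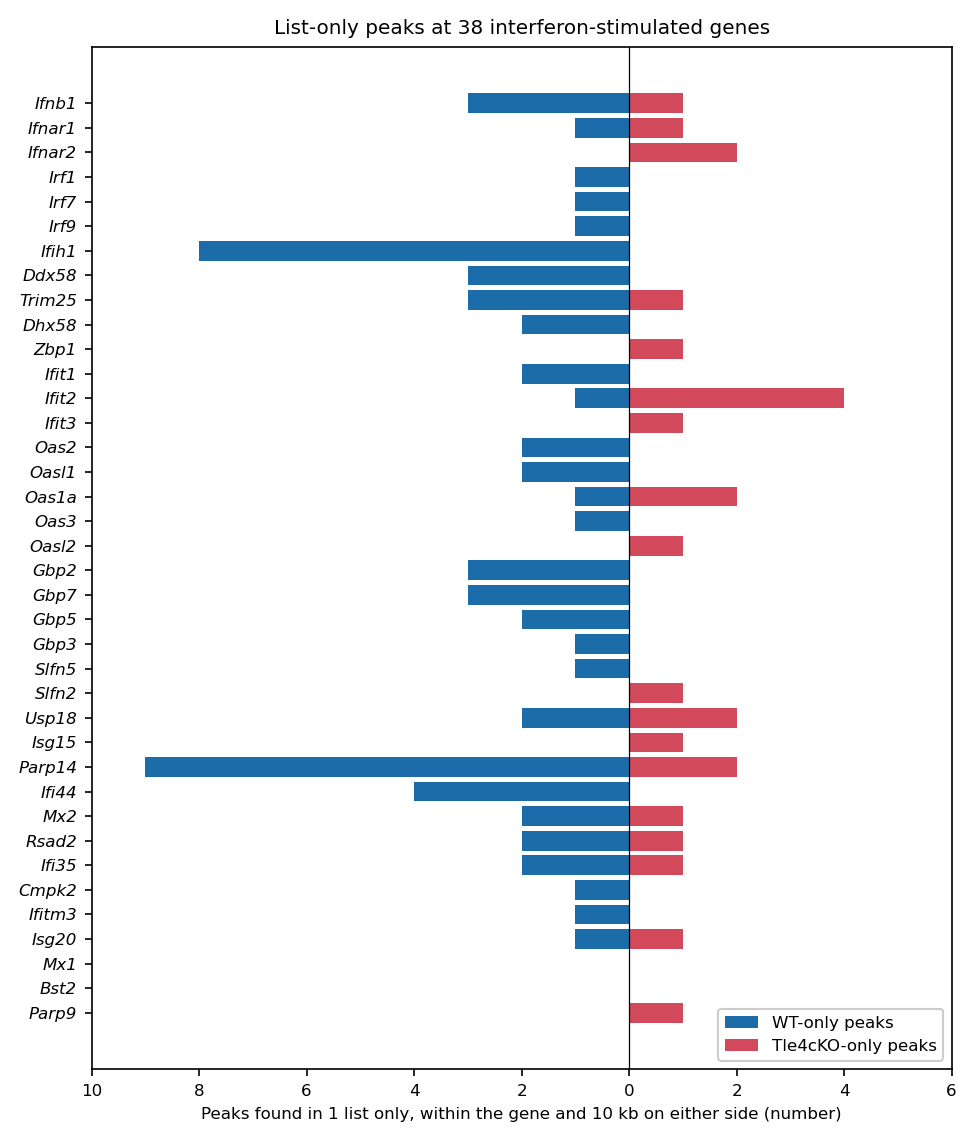
Number of WT-only peaks (bars to the left) and Tle4cKO-only peaks (bars to the right) within each gene and 10 kb on either side, by role. The longest bars to the left are those of Parp14 with 9 and Ifih1 with 8, and the longest to the right is that of Ifit2 with 4.

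The relative pileup of shared peaks lay close to that of the rest of the lists. Of the 165 pairs at these genes, 3 were called lower in Tle4cKO (1.82%), against 0.632% of all pairs, and none was called higher, against 0.696%. The relative log2 ratio was negative in 86 pairs (52.1%), against 46.7%, and positive in 74. Its median was -0.014 with quartiles of -0.213 and 0.097, and over all pairs the quartiles were -0.163 and 0.177. In percentile rank within all pairs, the median shift from WT to Tle4cKO was -0.487 points, compared with 0.039 over all pairs.

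Peak width and position within pairs also lay close to the rest. In WT these peaks spanned a median of 693.5 bp, and in Tle4cKO one of 698 bp, whereas the whole lists had 671 and 604 bp. Within pairs the median log2 width ratio was -0.101, against -0.104 over all pairs, and relative to pairs of like pileup it was -0.023. Summits moved by a median of 37 bp between the lists, against 44 bp over all pairs. In total the peaks covered 203140 bp in WT and 166670 bp in Tle4cKO.

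**Figure D4:**
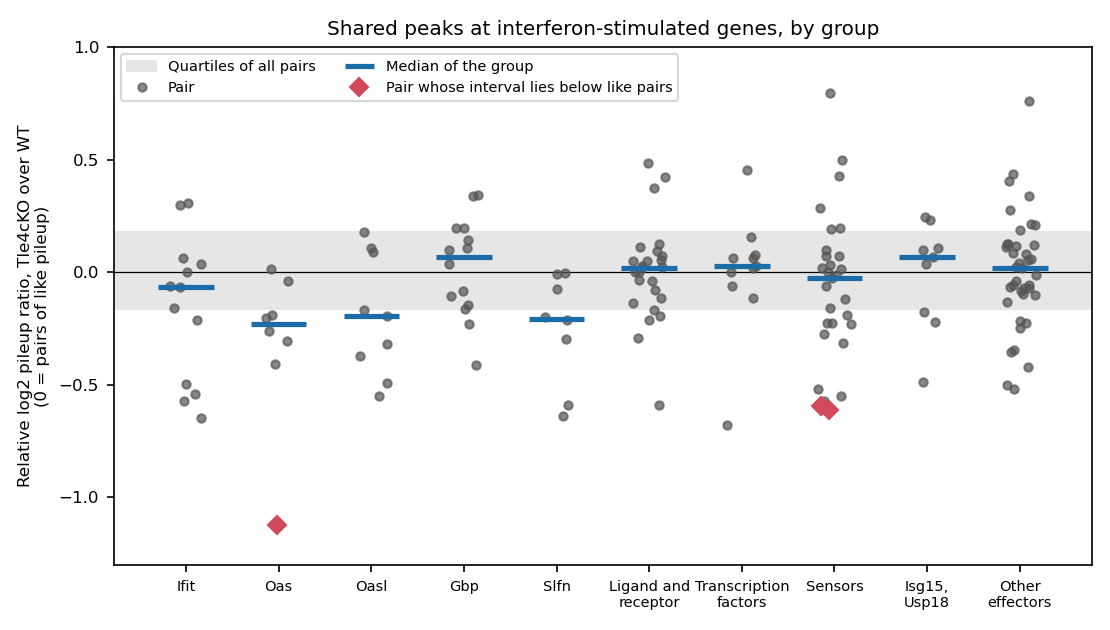
Relative log2 pileup ratio (vertical axis, Tle4cKO over WT, 0 is the median of pairs of like pileup) of each shared peak, by family or role (horizontal axis), with the group median as a bar, the quartiles of all pairs as a grey band and called pairs as diamonds. The 8 Slfn pairs all lie below 0, and the 3 diamonds are at Oas1a, Ifih1 and Dhx58.

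Among the ligand and receptor genes, peak numbers were equal in total, with 29 in each list. At Ifnb1 (chr4:88522025-88522794), which encodes interferon beta, the start peak was the weakest of those found in both lists, at 28 in WT and 19 in Tle4cKO. Its window held 7 WT and 5 Tle4cKO peaks, with 3 WT-only and 1 Tle4cKO-only. The strongest WT-only peak there had a pileup of 46 and lay in the flank at chr4:88519429-88519996, 2563 bp from the nearest Tle4cKO peak. Ifnar1 and Ifnar2 had tall start peaks, of 166 and 147 in WT and of 136 and 124 in Tle4cKO. Their relative log2 ratios were 0.021 and 0.112. The Ifnar1 window held 9 peaks in each list, with a WT-only flank peak of 51 at chr16:91480465-91480924 and a Tle4cKO-only peak of 10 inside the gene. Ifnar2 was among the genes with more peaks in Tle4cKO, 15 against 13, with 2 Tle4cKO-only peaks of 13 and 18 and no WT-only peak. The median relative log2 ratio over the 25 pairs of these genes was 0.017.

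The transcription factors Irf1, Irf7 and Irf9 had tall start peaks in both lists. Irf1, an activator that is itself induced by interferon gamma, had 193 in WT and 166 in Tle4cKO. Irf9, a DNA-binding part of the complex that acts at ISRE, had 187 and 156. Irf7, which amplifies type I interferon production, had 142 and 105. Relative log2 ratios at these starts were 0.064, 0.020 and -0.060, in that order. Each gene had 1 WT-only peak and no Tle4cKO-only peak. That of Irf1 was inside the gene, at chr11:53772532-53773003, with a pileup of 48 and 1579 bp from the nearest Tle4cKO peak, while those of Irf7 and Irf9 were weak, at 8 and 13.

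The sensors and their regulators held 45 WT and 34 Tle4cKO peaks. WT-only peaks numbered 16 (35.6%, 23.2 to 50.2) and Tle4cKO-only peaks 2 (5.88%, 1.63 to 19.1), against 27.1% and 23.5% of the whole lists. Without Ifih1 these were 8 of 27 (29.6%, 15.9 to 48.5) and 2 of 24 (8.33%, 2.32 to 25.8). Ifih1 (chr2:62595618-62646255), which encodes the long double-stranded RNA sensor Mda5, had 18 WT and 10 Tle4cKO peaks. All 8 of its WT-only peaks were weak, between 7 and 14. Its start peak was 155 in WT and 119 in Tle4cKO, a relative log2 ratio of -0.024. A flank peak at chr2:62648576-62649361 had pileups of 90 and 42, a ratio of 0.467 (0.316 to 0.680) against 0.704 in like pairs, and it measured 786 bp in WT and 303 bp in Tle4cKO. This was 1 of the 3 called pairs, lower by 1.51-fold than like pairs.

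Ddx58, which encodes the RNA sensor Rig-I, had 7 WT and 5 Tle4cKO peaks, and its 3 WT-only peaks, all inside the gene, had pileups of 10 and 11. Its start peak was 63 in WT and 50 in Tle4cKO, a relative log2 ratio of 0.197. Dhx58, which encodes the related regulator Lgp2, had the strongest WT start peak of all 38 genes, at 194, against 147 in Tle4cKO, and a relative log2 ratio of -0.118. Either gene end stood in for its start, and the summits lay inside the gene, at -1522 and -1558 bp from that end. The WT peak reached the end, but the Tle4cKO peak of 147 stopped at -827 bp. A separate Tle4cKO peak over the end had a pileup of 70. Inside Dhx58 lay the tallest WT-only peak of the set, with a pileup of 65 at chr11:100701269-100701865, although the nearest Tle4cKO peak was 203 bp away. The flank peak at chr11:100712103-100712758, which lies at the start of the neighbouring gene Kat2a, had pileups of 83 and 38, a ratio of 0.458 (0.303 to 0.680) against 0.700 in like pairs. It was called lower, by 1.53-fold relative to like pairs. Trim25, a ubiquitin ligase that acts on Rig-I, had start pileups of 171 and 145, with 3 WT-only peaks of 10 to 41 and 1 Tle4cKO-only peak of 15. Zbp1, a sensor of Z-form nucleic acid, had 167 and 110, a relative log2 ratio of -0.276, and it had 1 Tle4cKO-only peak, of 24, and no WT-only peak.

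The Ifit family encodes proteins that bind viral RNA, and its 3 members lie together on chromosome 19. The cluster held 16 peaks in each list. WT-only peaks were 3 (18.8%, 6.59 to 43.0) and Tle4cKO-only peaks 4 (25%, 10.2 to 49.5), against 27.1% and 23.5% of the whole lists. The intervals of the cluster overlap widely. Ifit2 (chr19:34550550-34576534) had the largest Tle4cKO-only excess of the 38 genes, with 4 such peaks and 1 WT-only peak. The 4 were weak, between 9 and 12, and 1 of them also lay in the Ifit3 window. They lay 54, 107, 2228 and 3296 bp from the nearest WT peak. Start pileups were 140 and 103 at Ifit2, 84 and 53 at Ifit1 (chr19:34640889-34650009), and 73 and 49 at Ifit3 (chr19:34583119-34588982), WT first. Relative log2 ratios were -0.067, -0.157 and -0.061. Ifit1 had 5 WT and 3 Tle4cKO peaks, and all 3 of its pairs were lower in Tle4cKO than like pairs, among them a flank peak of 37 in WT and 16 in Tle4cKO. Over the 13 pairs of the cluster the median was -0.067, with 8 below 0 and none called.

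Oas1a, Oas2 and Oas3 encode enzymes that make the activator of RNase L, and they lie together on chromosome 5. The cluster held 11 WT peaks, 3 of them WT-only (27.3%, 9.75 to 56.6), and 10 Tle4cKO peaks, 2 of them Tle4cKO-only (20%, 5.67 to 51.0). Over the whole lists these shares were 27.1% and 23.5%. Of the 8 pairs of the cluster 7 were below like pairs, and their relative log2 ratios had a median of -0.232. That median was -0.061 over 22 pairs when 50 kb were taken on either side. The pair farthest from its like pairs among all 38 genes was inside Oas1a (chr5:120896256-120907544), at chr5:120897307-120897970. Its pileup was 34 in WT and 11 in Tle4cKO, a ratio of 0.324 (0.148 to 0.654) against 0.704 in like pairs, and the relative difference was 2.18-fold. The peak was 664 bp wide in WT and 528 bp in Tle4cKO, and the summits of the lists lay 261 bp apart. At the start of Oas1a the pileups were 67 and 40, a relative log2 ratio of -0.204. Oas2 (chr5:120730333-120749886) had 83 and 44 at its start, a ratio of 0.530 (0.359 to 0.773) against 0.703 in like pairs, which was not called. Only 1 Tle4cKO peak was found in the Oas2 window, compared with 3 in WT. The strongest peak at Oas3 (chr5:120753098-120777684) had 181 and 122, with its summit 1969 bp downstream of the start. The peak over the Oas3 promoter printed above had 96 and 70, a relative log2 ratio of 0.016.

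Oasl1 and Oasl2 encode Oas-like proteins, and they lie elsewhere on chromosome 5. Each list held 11 peaks there, with 2 WT-only (18.2%) and 1 Tle4cKO-only (9.09%), against 27.1% and 23.5% of the whole lists. Oasl1 (chr5:114923143-114937911) had the highest start pileup of the 38 genes in Tle4cKO, 174, against 189 in WT, and a relative log2 ratio of 0.109. Inside the same gene a strong peak had 158 and 99, with a relative log2 ratio of -0.317, and a weak one had 23 and 11, with -0.550. The Tle4cKO peak of 174 ran from -1699 to -693 bp from the start of Oasl1 and did not cover it. The WT peak of 189 ran from -1633 to 460 bp. A separate Tle4cKO peak over the start had a pileup of 131. Its WT-only peaks, both inside the gene, had pileups of 38 and 25. Oasl2 (chr5:114896926-114912245) had 125 and 84 at its start, a relative log2 ratio of -0.166. Over the 9 Oasl pairs the median was -0.193, with 6 below 0.

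Guanylate-binding proteins are interferon-induced GTPases that attack vacuoles of intracellular microbes, and 4 of their genes lie together on chromosome 3. The Gbp cluster held 21 WT and 16 Tle4cKO peaks. WT-only peaks numbered 7 (33.3%, 17.2 to 54.6) and none of the 16 Tle4cKO peaks was Tle4cKO-only, a count that allows up to 18.8% (3 counts of 16). The whole-list shares were 27.1% and 23.5%, or 20.7% and 11.6% weighted to the pileups of all 38 genes. Shared peaks had a positive median relative log2 ratio, 0.066 over 14 pairs, although the median was -0.036 over the 8 pairs that touched a gene span. Gbp3 (chr3:142560016-142573213) had start pileups of 133 and 104 and Gbp7 (chr3:142530336-142550151) had 107 and 91. The relative log2 ratio was 0.035 at Gbp3 and 0.198 at Gbp7. Gbp2 (chr3:142620663-142638008) had 93 and 62, with -0.106. Gbp5 (chr3:142496934-142522344) had 73 and 38, with -0.411, a ratio of 0.521 (0.342 to 0.781) against 0.692 in like pairs, which was not called. The tallest WT-only peak of the cluster had a pileup of 39 and lay upstream of Gbp2 at chr3:142618562-142619163, 296 bp from the nearest Tle4cKO peak. A WT-only peak of 30 at chr3:142527576-142527843 fell in the windows of both Gbp5 and Gbp7, 2043 bp from the nearest Tle4cKO peak.

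Schlafen proteins act in immune cell growth and in restricting viruses, and Slfn2 and Slfn5 lie close together on chromosome 11. This cluster held 9 WT and 11 Tle4cKO peaks, with 1 WT-only (11.1%) and 1 Tle4cKO-only (9.09%). Over the whole lists these shares were 27.1% and 23.5%. All 8 pairs were below like pairs, and none was called. Their median relative log2 ratio was -0.206. It was -0.137 over the 4 pairs that touched a gene span and -0.130 over 26 pairs with 50 kb on either side. Slfn2 (chr11:83065112-83070678) had start pileups of 167 and 134, a relative log2 ratio of -0.0087, and Slfn5 (chr11:82951349-82964850) had 152 and 102, with -0.200. Slfn2 had the tallest Tle4cKO-only peak of the 38 genes, with a pileup of 44 at chr11:83065692-83066037 within 1000 bp of the start. It lay 81 bp from a WT peak.

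Isg15, a ubiquitin-like protein, and Usp18, the protease that removes it and dampens receptor signalling, had 11 WT and 12 Tle4cKO peaks together. Isg15 had start pileups of 72 and 53 and Usp18 had 118 and 96. Relative log2 ratios were 0.067 and 0.110. Inside Usp18 lay a WT-only peak of 41, 527 bp from the nearest Tle4cKO peak, and 2 Tle4cKO-only peaks of 18 and 14.

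The other effectors held 61 WT and 46 Tle4cKO peaks, with 21 WT-only (34.4%, 23.7 to 47.0) and 7 Tle4cKO-only (15.2%, 7.57 to 28.2), against 27.1% and 23.5% of the whole lists. Without Parp14 these were 12 of 48 (25%, 14.9 to 38.8) and 5 of 40 (12.5%, 5.46 to 26.1). Ifi44 (chr3:151730922-151749910) was the gene without any Tle4cKO peak in its window. Its 4 WT peaks were low, at 9, 15, 16 and 19, and the Tle4cKO peak nearest to any of them was 11711 bp away. Parp14 (chr16:35831892-35871518), an ADP-ribosyltransferase, had 13 WT and 6 Tle4cKO peaks. Its 9 WT-only peaks were all between 9 and 14, and 1 of its 2 Tle4cKO-only peaks reached 29. Its partner Parp9 had 5 peaks in each list and start pileups of 145 and 118, compared with 84 and 59 at Parp14.

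The Mx GTPases block the replication of viruses. Mx1 had the highest relative log2 ratio of the 37 start pairs, 0.436, with pileups of 74 in WT and 71 in Tle4cKO, a ratio of 0.959 (0.683 to 1.35) against 0.709 in like pairs. The other 4 pairs around Mx1 were all below like pairs. Mx2 had start pileups of 117 and 88. Rsad2, which encodes viperin, and its neighbour Cmpk2, a nucleotide kinase, had start pileups of 114 and 92 and of 140 and 92. Their relative log2 ratios were 0.122 and -0.216. A WT-only peak of 28 lay in both of their windows, and one of 43 inside Rsad2.

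Among the remaining effectors, Bst2, the virion tether tetherin, had 156 and 135 at its start, a relative log2 ratio of 0.118, and no peak of 1 list only. None of its 4 pairs was below like pairs. Ifitm3, which blocks viral fusion, had 53 and 35 at its start, with -0.068, and a WT-only flank peak of 33. Isg20, an exonuclease, had 166 and 126, with -0.071, and Ifi35 had 120 and 93, with 0.040.

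Promoters with ISRE letters were read separately, since these letters are the core of the element through which type I interferon acts. All 15 had their letters under a peak of both lists. These peaks had pileups of 53 to 156 in WT, with a median of 93, and of 35 to 135 in Tle4cKO, with a median of 62. Their relative log2 ratios ran from -0.411 at Gbp5 to 0.198 at Gbp7, with a median of -0.024. The value was negative in 8 of 15 and no peak was called. Summits moved by a median of 32 bp and by more than 100 bp at Gbp2 (511 bp), Gbp5 (366 bp), Ddx58 (204 bp) and Ifitm3 (128 bp). Among the strongest start pairs, the median relative log2 ratio was -0.061 for the 15 genes with ISRE letters and 0.010 for 14 without. Here Oas3 entered with its pair of 181 and 122 (-0.260), which did not cover the letters. With the Oas3 pair over the letters, the median of the 15 was the -0.024 given above. Over genes outside the set the median for the strongest start pairs was -0.0015 for 409 with the letters and 0.0065 for 10489 without.

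**Figure D5:**
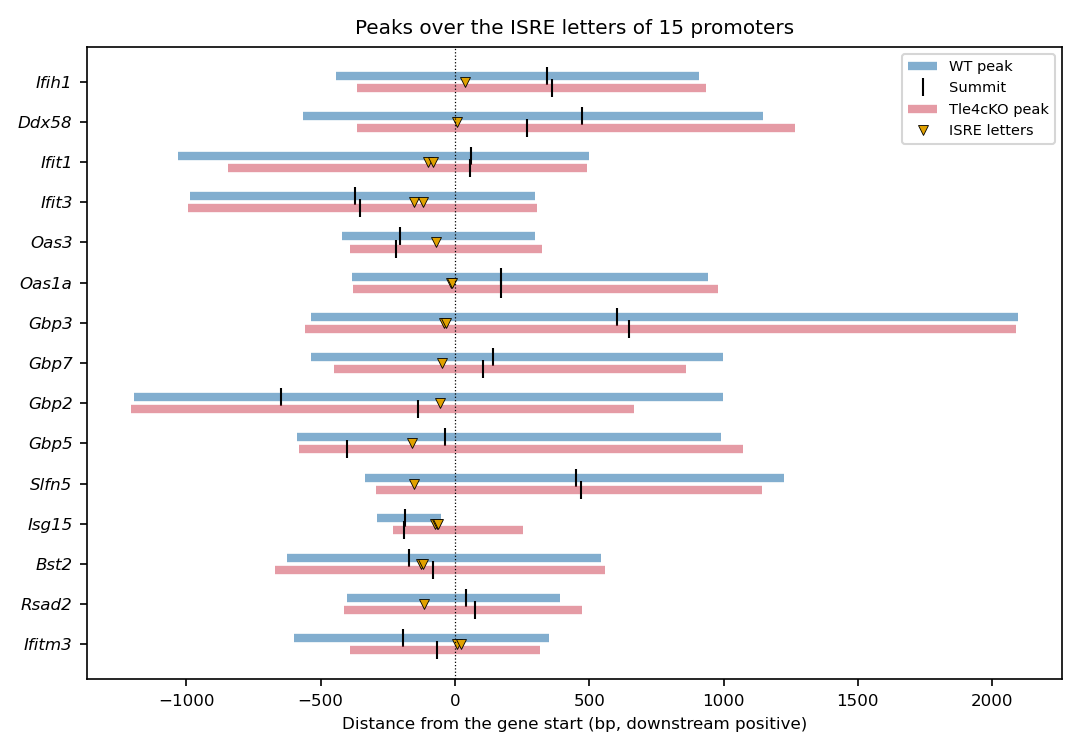
Extent of the WT peak (upper bar) and the Tle4cKO peak (lower bar) over the ISRE letters of 15 promoters, by distance from the gene start (horizontal axis, bp), with summits as vertical ticks and the letters as triangles. Both peaks cover the letters at each gene, and the largest move of a summit is that of Gbp2, 511 bp.

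Other genes of the pathway, 40 in number, were counted in the same way. More WT-only than Tle4cKO-only peaks were found at 20 (50%, against 39.4% of all genes with a peak), equal numbers at 14 (35%, against 33.0%) and the reverse at 6 (15%, against 27.6%). They held 375 WT and 350 Tle4cKO peaks, with 86 WT-only (22.9%, against 27.1% of the whole list) and 50 Tle4cKO-only (14.3%, against 23.5%). Their median pileups were 44 in WT and 33 in Tle4cKO, above the 28 and 20 of the whole lists. Shares weighted to those pileups were not computed. Of 281 pairs 6 were called lower in Tle4cKO (2.14%, against 0.632%) and 2 higher (0.712%, against 0.696%). The relative log2 ratio had a median of 0. Tlr7, on chromosome X, held 4 of the 6 lower calls, and Ifngr1 and Epsti1 held 1 each. All 9 Tlr7 pairs were below like pairs, the middle one by -0.608 on the relative log2 scale. The higher share of lower calls therefore came mainly from this 1 gene and was not spread over the pathway. The receptor and signalling genes had a WT-only excess at 6 of 12, the sensing genes at 6 of 8 and the further induced genes at 8 of 20, which is 40% and close to the share over all genes. Rnf213, an interferon-induced ubiquitin ligase, had 29 WT and 17 Tle4cKO peaks, with 17 WT-only and 4 Tle4cKO-only. Jak2, a kinase attached to the interferon gamma receptor, had 19 and 12, with 11 and 3.

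The handling of reads that map to several places is not given in the sources used here, so that peaks in near-identical copies of the Ifit, Oas1, Gbp and Slfn families are uncertain.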

How the data were processed

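ATAC-seq peaks of 2 libraries were used, 1 per genotype, each from 2 pooled mice. Each library has its own peak list; the deposited pileup is a signal per peak and was used as given, with the width in bp. Tools listed in the submitters' processing notes include MACS2 2.1.1, Bowtie2 2.2.5, cutadapt 1.14, HOMER 4.7.2 and featureCounts 1.5.0, with the build mm10. Read depth is unknown, and thresholds, duplicate handling, the shift for the transposase and scaling are, in the sources used here, not given.

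Peaks overlapping a gene span extended by 10 kb were assigned to it. Peaks sharing at least 1 bp counted as shared, and reciprocal best overlaps formed pairs. Pileup ratios were centred on the median of 50 classes of summed pileup. Wilson intervals (95%) accompany shares and exact Clopper-Pearson intervals accompany ratios; these reflect counting error alone and treat pileups as counts, which is approximate for a maximum over a peak. A share of 0 is given with the share that 3 counts would make. Peaks of 1 library are not replicates, so no test between genotypes was made. Gene starts came from the RefSeq promoter table for 30 genes. For the other 8 (Mx1, Mx2, Dhx58, Parp14, Oas2, Parp9, Usp18 and Zbp1) either annotated end was used. Values in full were given for the families, the ligand, receptors and transcription factors, genes with an imbalance of at least 3 peaks, genes with a called pair and the 5 highest start peaks, and in brief for the rest. Other pathway genes were named from an imbalance of 4, and Tlr7, Ifngr1 and Epsti1, after the data were seen, for their lower calls. The members and lists were chosen with earlier results of these data known.

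Alternatives were other windows, a pileup of at least 15, strong peaks, other overlap rules and other references for the ratios. Leaving out Ifih1, Parp14 or both, and pairs that cover the start, were chosen after seeing the data. Calculations used Python 3.11.15, numpy 2.4.6, pandas 2.3.3 and scipy 1.17.1, tested on simulated data.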

Additional observations from a re-analysis of the deposited data

How the results depend on the processing

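Of 76 comparisons of 25 results with their alternatives, 64 gave a value inside the 95% interval of the main result and 12 outside it. For shares this was the counting interval, and for medians an interval of the median taken from the ranked values of the pairs. With a pileup of at least 15, the WT-only share was 11.6% (whole list 10.9%) and the Tle4cKO-only share 4.35% (3.3%), so that the distance of the Tle4cKO-only share from the whole list was not seen among these peaks. Among strong peaks, at or above the upper quartile of their list, both shares were 0%, with 0 of 88 WT peaks, which allows up to 3.41% (3 counts of 88), and 0 of 86 Tle4cKO peaks, which allows up to 3.49% (whole lists 0.518% and 0.313%). The Tle4cKO-only share was 6.53% where a distance of up to 500 bp also counted as shared (whole list 20%). The median log2 width ratio was -0.0227 relative to pairs of like pileup. With a pileup of at least 15, the Tle4cKO-only share was 0% in the Ifit, Oas and Oasl clusters and the WT-only share 0% in the Slfn cluster; with no flank, the Tle4cKO-only share was 0% in the Oas and Oasl clusters, all from 8 peaks or fewer. No paired analysis was possible because each genotype had 1 library, and no library could be left out. Read depth is unknown, so what it limits was not tested; the median pileup of peaks found in 1 list only was 12.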
